A study of Mus musculus with 13 samples.

Results

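Synaptic organizers are adhesion proteins that sit in the pre- and postsynaptic membranes, or are secreted into the cleft, and bind each other across the synapse. Presynaptic neurexins bind neuroligins, LRRTMs, the secreted cerebellins and the neurexophilins. Presynaptic phosphatases of the LAR type bind SLITRKs, SALMs (the Lrfn genes) and IL1RAPLs. Latrophilins bind FLRTs and teneurins, and netrin-G proteins bind the Lrrc4 family. Together these genes take part in deciding which contacts form and of which kind. Of 36 genes listed for these families, 33 had a row in the deposited count tables, in both the table of the blindly sampled mouse and that of the projection mice. Cbln1, Flrt3 and Ntng1 were not analysed here. The 33 genes were set against 22805 genes with a count in the cells kept.

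The cells came from the claustrum, a thin sheet of neurons beneath the insular cortex, of 4 mature male C57BL/6 mice, and were picked by hand from dissociated slices in 13 plates. The blindly sampled mouse is labelled wild type, and in it rAAV2-retro-CAG-GFP in the anterior cingulate cortex guided the dissection and cells were taken without regard to it. In projection mice 1 to 3, green retrobeads lay in the lateral entorhinal cortex (LEC) and red retrobeads in the retrosplenial cortex (RSC), so a bead in a cell marks its axonal target, while cells without a bead are called unlabelled and may still project to either. Of 1112 cells, 1011 were kept because Snap25, expressed in neurons, and Slc17a7, expressed in glutamatergic neurons, both had 1 count or more. Of these, 247 carried the RSC label and 286 the LEC label, 240 were unlabelled cells of the projection mice, and 238 came from the blindly sampled mouse. Cells were also divided by Synpr, a marker of the claustrum core, into 438 Synpr-high cells with 200 CPM or more (CPM, counts scaled to the same total in every cell) and 573 Synpr-low cells. The division was clear, with 26 cells between 100 and 500 CPM and 397 Synpr-low cells without a count of Synpr.

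A count here is taken as a read, and several reads may come from 1 molecule. Cells of the blindly sampled mouse had a median of 26023 counts and came from another flow cell, while the medians of the projection mice lay between 138535 and 154261.5 counts. An effect of the blindly sampled mouse cannot be told apart from one of depth, or of flow cell and read length if these were its plates. Of 368 cell barcodes, 343 occurred in at least 2 plates and 0 were repeated within a plate, so cells were identified by plate and barcode. The other core markers summed to 4322 to 4766 CPM in Synpr-high and 321 to 713 CPM in Synpr-low cells, while 5 shell markers summed to 133 to 190 and 1307 to 2299 CPM. The 7 layer 6 markers also differed, with 14.9 to 27.9 CPM in Synpr-high and 119 to 262 CPM in Synpr-low cells, and 145 Synpr-low cells had counts of at least 2 of them. Markers of oligodendrocytes reached 310 CPM in Synpr-high and 484 CPM in Synpr-low sums, those of inhibitory cells 141 and 31.9 CPM, those of microglia 8.16 and 0.652 CPM, and those of astrocytes and endothelium under 3 CPM. Without the 20 cells with a count of the inhibitory genes Gad1 or Gad2, the same 5 organizers as below were called between the Synpr classes and the same 2 between RSC and LEC. The part of the other cell types in the results was not tested. Counts were summed per mouse, and levels are CPM after TMM normalization, which are not per length and so are compared within a gene only. In sums, fewer cells with a gene and less RNA of it per cell cannot be told apart.

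A few organizers were called between Synpr-high and Synpr-low cells, in both directions and each from another family. Cbln2, Slitrk1 and Lphn2 were higher in Synpr-high cells, and Lrrtm3 and Nxph3 were lower. With a threshold of 0.05 on the adjusted p of edgeR's quasi-likelihood test, 3 of 33 organizers rose and 2 fell, against 4.47% and 4.34% of all 13640 genes tested, or 8.81% in both directions. With the mouse as a block, which uses that each mouse gave cells of both classes, 9 organizers were called, against 14.6% of all genes, and the additional ones, Lrrc4c, Lrrtm1, Slitrk5 and Flrt2, were all lower in Synpr-high cells. The median log2 fold change over the 33 organizers was -0.0024, against -0.00067 over all genes tested. The levels of the 4 mice did not overlap between classes for 8 organizers, 4 higher and 4 lower, against 15.5% of all genes. Whether the shares of the organizers differ from those of all genes was not tested.

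**Figure D1:**
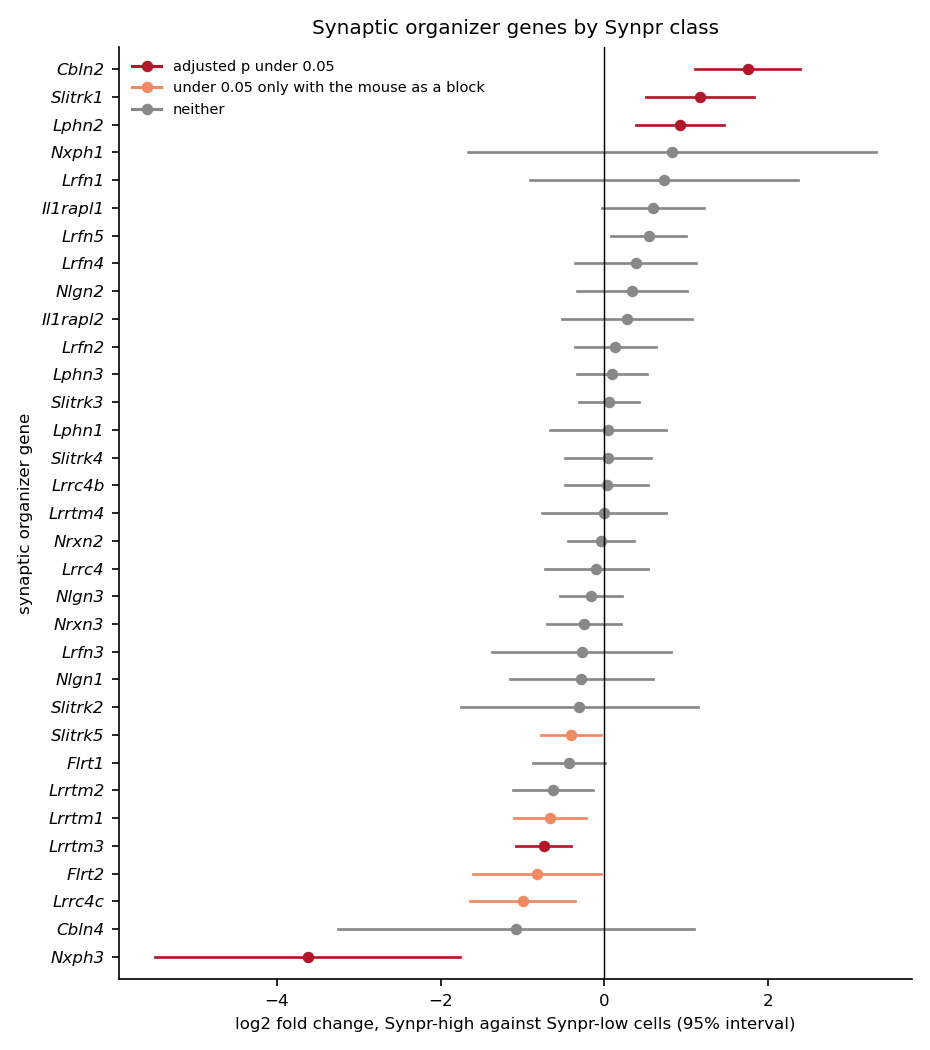
Log2 fold change between Synpr-high and Synpr-low cells (x axis) for each of the 33 organizers (y axis), from edgeR on sums of 4 mice, with 95% intervals; the color gives the result of the test with and without the mouse as a block. The 5 genes in dark red lie on either side of no change, from Nxph3 at -3.62 to Cbln2 at 1.76. Of the 28 other organizers, 13 have intervals within a 2-fold change either way.

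Cerebellins are secreted proteins that bridge presynaptic neurexins and postsynaptic delta receptors. In Synpr-high cells, Cbln2 stood at 144 CPM in the blindly sampled mouse and at 72.0, 86.1 and 87.3 CPM in projection mice 1, 2 and 3. In Synpr-low cells it stood at 45.7, 24.6, 22.5 and 23.5 CPM in the same order. The lowest Synpr-high value was above the highest Synpr-low value, and both classes were highest in the blindly sampled mouse. The means were 97.4 ± 32.0 and 29.1 ± 11.1 CPM (SD, n = 4 mice), with a log2 fold change of 1.76 (SE, 0.29; edgeR, Benjamini-Hochberg adjusted p = 0.0039). Cbln2 was higher in Synpr-high cells in 12 of the 12 plates with at least 5 cells of each class. It had a count in 72.4% of Synpr-high and 31.2% of Synpr-low cells, and in 58.1% and 19.8% (95% exact Clopper-Pearson intervals for counting error, 53.2 to 63.0% and 16.4 to 23.5%) when each cell was thinned to 20000 counts. The family member Cbln4 was rarely seen, with a count in 4.75% of cells, and stood at 0.925 to 4.68 CPM in Synpr-high and 1.07 to 15.4 CPM in Synpr-low sums, the highest value in each class being that of the blindly sampled mouse. It did not pass the test, and its interval, -3.25 to 1.10 on the log2 scale, holds large changes in either direction.

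The receptors of Cbln2 differed less. Nrxn2 stood at 85.5 ± 12.2 CPM in Synpr-high and 88.0 ± 19.9 CPM in Synpr-low cells (n = 4), and the interval of its log2 fold change ran from -0.44 to 0.36. Nrxn3 stood at 110 ± 27.1 and 130 ± 27.0 CPM, with an interval of -0.70 to 0.21. Neither neurexin passed the test, and their levels in the classes overlapped. The neuroligins Nlgn1, Nlgn2 and Nlgn3, postsynaptic partners of neurexins, also gave no call, with log2 fold changes of -0.28, 0.34 and -0.16.

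Slitrk1, a postsynaptic leucine-rich repeat protein that induces presynaptic differentiation, stood at 65.8 CPM in the Synpr-high cells of the blindly sampled mouse and at 50.7, 46.9 and 61.0 CPM in those of projection mice 1 to 3. In Synpr-low cells it stood at 43.6, 18.4, 16.4 and 22.7 CPM. The Synpr-low value of the blindly sampled mouse came nearest to the Synpr-high values without reaching them. The means were 56.1 ± 8.78 and 25.3 ± 12.5 CPM, with a log2 fold change of 1.17 (SE, 0.29; edgeR, adjusted p = 0.0345, and 0.00269 with the mouse as a block). Slitrk1 was higher in Synpr-high cells in 11 of 12 plates, and it had a count in 50.7% of Synpr-high and 23.2% of Synpr-low cells after thinning (73.5% and 41.0% before). Leaving out any of the 3 projection mice ended the call, with log2 fold changes of 1.08 to 1.09 and adjusted p of 0.124 to 0.214, and leaving out layer 6-marked cells gave 1.14 with an adjusted p of 0.0596.

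Its relative Slitrk5 went the other way by a small amount. It stood at 289, 195, 202 and 174 CPM in Synpr-high cells of the blindly sampled mouse and projection mice 1 to 3, and at 339, 271, 264 and 265 CPM in Synpr-low cells. It was lower in Synpr-high cells in 4 of 4 mice and in 12 of 12 plates, although the 2 ranges overlapped through the blindly sampled mouse. This gave a log2 fold change of -0.41 (SE, 0.16; edgeR, adjusted p = 0.186), and the adjusted p was 0.00882 with the mouse as a block. Slitrk3 and Slitrk4 had log2 fold changes of 0.06 and 0.04 with intervals of -0.31 to 0.42 and -0.48 to 0.57. Slitrk2 had counts in 5.24% of cells and was too sparse to compare, with an interval of -1.75 to 1.14.

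Lphn2, an adhesion G protein-coupled receptor now named Adgrl2, stood at 47.4, 41.9, 25.5 and 36.9 CPM in Synpr-high cells of the blindly sampled mouse and projection mice 1 to 3. In Synpr-low cells it stood at 23.4, 20.6, 13.3 and 22.5 CPM. Projection mouse 2 was lowest in both classes, and each mouse was higher in its Synpr-high cells. The log2 fold change was 0.93 (SE, 0.24; edgeR, adjusted p = 0.0414, and 0.00486 with the mouse as a block), and 11 of 12 plates had the higher level in Synpr-high cells. The adjusted p of Lphn2 was 0.0688 with the blindly sampled mouse left out, 0.199 with projection mouse 1 left out, 0.155 with projection mouse 3 left out, 0.0821 after thinning and 0.103 without layer 6-marked cells. The other latrophilins gave no call, and Lphn1 had a log2 fold change of 0.05 (interval, -0.66 to 0.76) and Lphn3 one of 0.10 (-0.33 to 0.53). Lphn1 stood at 209 and 208 CPM in the 2 classes of the blindly sampled mouse and at 89.7 to 112 CPM in those of the projection mice.

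The FLRTs are postsynaptic ligands of latrophilins and Unc5 receptors. Flrt2 stood at 7.17, 28.8, 16.4 and 19.7 CPM in Synpr-high cells of the blindly sampled mouse and projection mice 1 to 3, and at 28.4, 44.7, 30.4 and 26.0 CPM in their Synpr-low cells. All 4 mice had the higher level in Synpr-low cells, with overlapping ranges. Flrt2 had a log2 fold change of -0.82 (SE, 0.35; edgeR, adjusted p = 0.222). The block, with an adjusted p of 0.0483, was the only one of 14 alternatives in which Flrt2 passed, and without layer 6-marked cells the change was -0.45 with an adjusted p of 0.597. Flrt1 had a log2 fold change of -0.43 (SE, 0.20; edgeR, adjusted p = 0.253, and 0.0770 with the block).

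**Figure D2:**
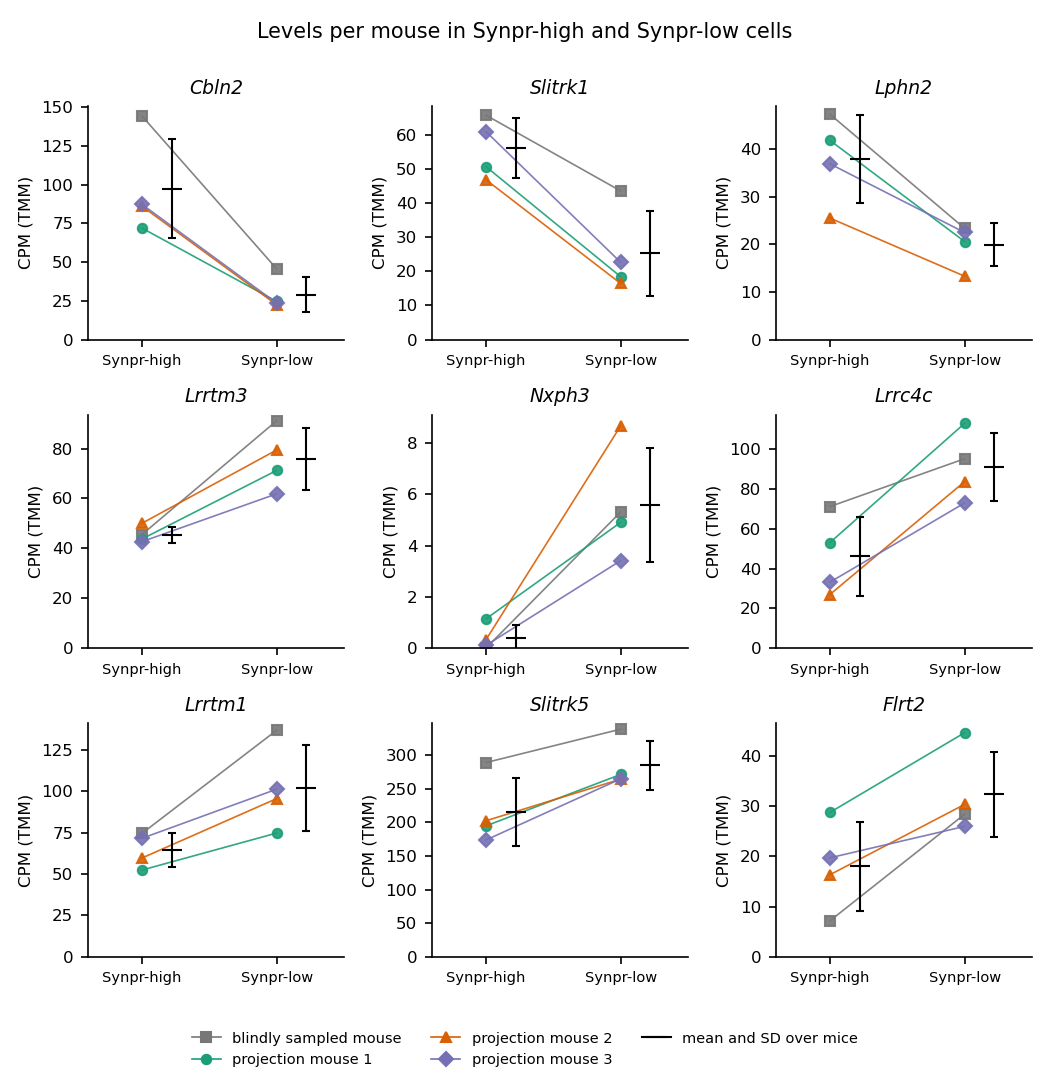
TMM-normalized CPM (y axis) in Synpr-high and Synpr-low cells (x axis) of each of the 4 mice for the 9 organizers called with or without the mouse as a block; lines join the classes of a mouse, and black bars give the mean and SD. All 4 lines fall from Synpr-high to Synpr-low for Cbln2, Slitrk1 and Lphn2 and rise for the other 6 genes.

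LRRTMs are postsynaptic leucine-rich repeat proteins that bind neurexins. Lrrtm3 stood at 45.5, 43.7, 50.04 and 42.7 CPM in Synpr-high cells of the blindly sampled mouse and projection mice 1 to 3 and at 91.1, 71.2, 79.4 and 61.8 CPM in Synpr-low cells. The Synpr-high values were close together and all below the Synpr-low values. Lrrtm3 thus had a log2 fold change of -0.74 (SE, 0.15; edgeR, adjusted p = 0.0124). Without projection mouse 1 or 2 the adjusted p was 0.0812 and 0.0646, with changes of -0.75 and -0.76. Lrrtm1 stood at 64.5 ± 10.3 CPM in Synpr-high and 102 ± 25.8 CPM in Synpr-low cells, lower in 4 of 4 mice without overlap (log2 fold change, -0.66; SE, 0.20; edgeR, adjusted p = 0.0677, and 0.00607 with the mouse as a block). Lrrtm2 stood at 30.7 ± 2.06 and 47.6 ± 15.0 CPM (log2 fold change, -0.63; SE, 0.22; edgeR, adjusted p = 0.123, and 0.0740 with the block), and Lrrtm4 at 17.6 ± 5.08 and 17.9 ± 7.91 CPM (log2 fold change, -0.0024; interval, -0.76 to 0.75). In the annotation, the exons of Lrrtm1, Lrrtm2 and Lrrtm3 lie on the other strand of Ctnna2, Ctnna1 and Ctnna3, in an intron or, for Lrrtm2, on an exon, and the use of strand in counting is not given in the sources used here. Ctnna2 moved opposite to Lrrtm1, with a log2 fold change of 1.49 (SE, 0.28; edgeR, adjusted p = 0.0082), and Ctnna1 had one of 0.35 (SE, 0.37).

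Lrrc4c, the ligand of netrin-G1, stood at 71.1, 53.0, 26.9 and 33.1 CPM in Synpr-high cells of the blindly sampled mouse and projection mice 1 to 3 and at 95.1, 113, 83.6 and 72.9 CPM in Synpr-low cells. Each mouse was lower in its Synpr-high cells, as were 12 of 12 plates. Its change was -0.996 on the log2 scale (SE, 0.29; edgeR, adjusted p = 0.0617, and 0.00578 with the mouse as a block), and leaving out layer 6-marked cells gave -1.11 with an adjusted p of 0.0434. The related Lrrc4 and Lrrc4b, which bind other presynaptic partners, had log2 fold changes of -0.10 (interval, -0.73 to 0.54) and 0.03 (-0.47 to 0.54). Among SALMs and IL1RAPLs no gene was called. The smallest unadjusted p values among them were those of Lrfn5, with 61.1 ± 6.53 CPM in Synpr-high and 41.9 ± 12.2 CPM in Synpr-low cells (edgeR, adjusted p = 0.161), and Il1rapl1, with 10.2 ± 2.32 and 6.71 ± 0.388 CPM (adjusted p = 0.270). Lrfn2, Lrfn3, Lrfn4 and Il1rapl2 had log2 fold changes of 0.14, -0.27, 0.39 and 0.28, and Lrfn1, with counts in 3.76% of cells, one of 0.73 with an interval of -0.91 to 2.37.

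For 3 of the 5 called organizers, the RefSeq table held the bases before the start of the gene. They are shown because Slitrk1 and Lphn2 were higher and Lrrtm3 lower in Synpr-high cells, so that the stretches upstream of genes that moved in opposite directions can be read side by side. Each is the 250 bases before the annotated start in GRCm38.p6, 5′ to 3′ on the strand of the gene, and capitals mark a match to a motif. Slitrk1 lies on the minus strand at chr14:108914240-108914489, Lphn2 on the minus strand at chr3:148954636-148954885 and Lrrtm3 on the minus strand at chr10:64090256-64090505.
Slitrk1: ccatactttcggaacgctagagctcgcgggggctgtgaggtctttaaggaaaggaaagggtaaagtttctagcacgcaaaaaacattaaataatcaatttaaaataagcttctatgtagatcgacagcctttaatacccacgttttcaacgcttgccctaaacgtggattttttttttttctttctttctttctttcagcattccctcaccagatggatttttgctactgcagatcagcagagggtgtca
Lphn2: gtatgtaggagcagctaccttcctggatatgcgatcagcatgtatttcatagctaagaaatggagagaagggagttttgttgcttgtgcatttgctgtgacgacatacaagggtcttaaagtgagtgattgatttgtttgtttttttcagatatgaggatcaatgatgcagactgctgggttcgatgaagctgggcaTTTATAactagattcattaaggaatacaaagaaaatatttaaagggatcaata
Lrrtm3: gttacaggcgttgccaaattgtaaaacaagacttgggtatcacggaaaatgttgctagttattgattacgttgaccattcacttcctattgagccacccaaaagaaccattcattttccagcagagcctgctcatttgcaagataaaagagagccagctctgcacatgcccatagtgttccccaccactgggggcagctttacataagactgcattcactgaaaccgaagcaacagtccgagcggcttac

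The motifs searched, on both strands, were the NBRE bound by Nr4a receptors (AAAGGTCA), the TATA box (TATAAA), the GC box (GGGCGG), an E box (CACGTG) and the CRE (TGACGTCA). Of these, Lphn2 held a TATA box on the other strand, 53 bases before the start, and the upstream bases of Slitrk1 and Lrrtm3 held no match. Over the 24 of 33 organizers with an entry, the NBRE was found in 0, the TATA box in 3, the GC box in 9, the E box in 2 and the CRE in 1. In all 32851 entries of the table the shares were 1.34%, 12.4%, 32.7%, 6.02% and 1.55%. An organizer with several entries was counted if any of them matched, while these shares are per entry, so the numbers are not directly comparable. A match is a description of letters and not a site in use.

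The genes that act with organizers also moved in both directions. Of 41 genes listed, from phosphatases and teneurins to glypicans, 35 had a row and 28 were tested. Of these, 7 were higher and 8 lower in Synpr-high cells, against 4.47% and 4.34% of all genes, with a median log2 fold change of 0.13. Odz2 (teneurin 2), a ligand of latrophilins, stood at 585 ± 24.5 CPM in Synpr-high and 136 ± 32.5 CPM in Synpr-low cells (edgeR, adjusted p = 6.55e-05). Odz1 (teneurin 1) stood at 28.2 ± 4.73 and 68.6 ± 1.88 CPM (edgeR, adjusted p = 0.000559). Unc5d, a netrin receptor that also binds FLRTs, had a log2 fold change of 1.68, and Cadm3 and Cadm2, immunoglobulin adhesion proteins, had changes of 1.55 and 1.10. Gpc4, a glypican that binds LRRTMs and LAR-type phosphatases, stood at 2.21 ± 0.445 and 18.1 ± 5.41 CPM, Nptx1, a pentraxin that clusters AMPA receptors, had a log2 fold change of -1.18, and Mdga1, which binds neuroligins and blocks their access to neurexins, one of 4.17. This list was chosen with results of these data known.

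Neurexophilins are secreted ligands of alpha-neurexins, and Nxph3 gave the largest change of the organizers. It stood at 0 CPM in Synpr-high cells of the blindly sampled mouse and at 1.14, 0.325 and 0.108 CPM in those of projection mice 1 to 3. In Synpr-low cells it stood at 5.31, 4.91, 8.67 and 3.41 CPM. The classes did not overlap, with a log2 fold change of -3.62 (SE, 0.84; edgeR, adjusted p = 0.0228, and 0.166 and 0.0894 without projection mouse 2 or 3). Nxph3 had a count in 1.83% of Synpr-high and 16.6% of Synpr-low cells. Its relative Nxph1 stood at 1.25, 2.12, 0 and 14.8 CPM in Synpr-high cells, and 64.9% of its counts lay in cells with a count of the inhibitory markers Gad1 or Gad2, of which 20 were kept.

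Synpr-low cells were then divided by the layer 6 markers, a comparison added after the first results were seen. The 145 layer 6-marked cells and the 428 other Synpr-low cells had median totals of 109573 and 123981.5 counts. The 5 shell markers summed to 763 to 1833 CPM in layer 6-marked and 1493 to 2428 CPM in other Synpr-low cells, so their ranges overlapped. Nxph3 stood at 15.4, 13.4, 38.8 and 15.6 CPM in layer 6-marked cells of the blindly sampled mouse and projection mice 1 to 3. In the other Synpr-low cells it stood at 1.10, 1.56, 0.363 and 0.575 CPM, near the level of Synpr-high cells. The log2 fold change between them was 4.58 (SE, 0.83; edgeR, adjusted p = 0.0122). Nxph3 was seen in 51.0% of layer 6-marked, 4.91% of other Synpr-low and 1.83% of Synpr-high cells, and its low counts without layer 6-marked cells left it untested between the Synpr classes.

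In that comparison 3 of 33 organizers were higher in layer 6-marked cells and 0 lower, against 0.940% and 1.03% of 12985 genes, or 1.97% in both directions. At an unadjusted p under 0.05 there were 8 organizers, against 13.5% of all genes. Of the 33 organizers, 4 lay above and 2 below without overlap, and the share over all genes was not counted. Lrrtm2 stood at 86.0, 102, 67.7 and 63.8 CPM in layer 6-marked and at 40.3, 51.6, 23.1 and 32.6 CPM in other Synpr-low cells of the blindly sampled mouse and projection mice 1 to 3, without overlap. Its log2 fold change was 1.12 (SE, 0.24; edgeR, adjusted p = 0.0325). Lrrtm3 stood at 139, 100, 103 and 89.6 CPM against 69.2, 61.0, 74.2 and 55.9 CPM (log2 fold change, 0.73; SE, 0.17; edgeR, adjusted p = 0.0451). Lrrtm3 was thus ordered with Synpr-high cells lowest, at 45.7 ± 3.35 CPM, other Synpr-low cells next, at 65.1 ± 8.21 CPM, and layer 6-marked cells highest, at 108 ± 21.6 CPM, and the levels of the 4 mice did not overlap between any of these classes. Between Synpr-high and the other Synpr-low cells, the change of Lrrtm3 was -0.51 with an adjusted p of 0.0585.

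With the mouse as a block, 5 organizers were called in layer 6-marked cells, against 3.65% of all genes, the additional ones being Flrt2 and Nrxn3. Flrt2 stood at 41.6 to 68.3 CPM in layer 6-marked and 20.8 to 36.1 CPM in other Synpr-low cells (log2 fold change, 1.17; SE, 0.35; edgeR, adjusted p = 0.125, and 0.0325 with the block). Nrxn3 stood at 118, 251, 309 and 193 CPM in layer 6-marked cells of the blindly sampled mouse and projection mice 1 to 3 and at 115, 134, 89.4 and 82.5 CPM in the others, so that the blindly sampled mouse showed little of the difference (log2 fold change, 1.05; SE, 0.27; edgeR, adjusted p = 0.0659, and 0.0351 with the block). Lrrtm1 differed among the mice, with 235 CPM in layer 6-marked cells of the blindly sampled mouse and 38.7 to 69.1 CPM in those of the projection mice, against 91.3 to 110 CPM in other Synpr-low cells. Cbln2 and Slitrk1 gave no call between the parts of the Synpr-low class, with log2 fold changes of -0.76 and -0.13.
Among the partner genes, 1 was higher (Mdga1) and 4 were lower (Ptprs, Unc5a, C1ql3 and Odz4) of 29 tested, against 0.940% and 1.03% of all genes. Leaving out any of the mice ended the calls of Lrrtm2 and Lrrtm3, with adjusted p from 0.0866 to 0.150 and from 0.0957 to 0.201, and leaving out projection mouse 2 or 3 ended that of Nxph3, with 0.177 and 0.0689. With 1 marker required in place of 2, none of Nxph3, Lrrtm2 and Lrrtm3 passed, with log2 fold changes of 4.47, 0.81 and 0.55 and adjusted p of 0.0911, 0.495 and 0.452, and with every gene kept that had a count, Lrrtm3 had an adjusted p of 0.105.

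**Figure D3:**
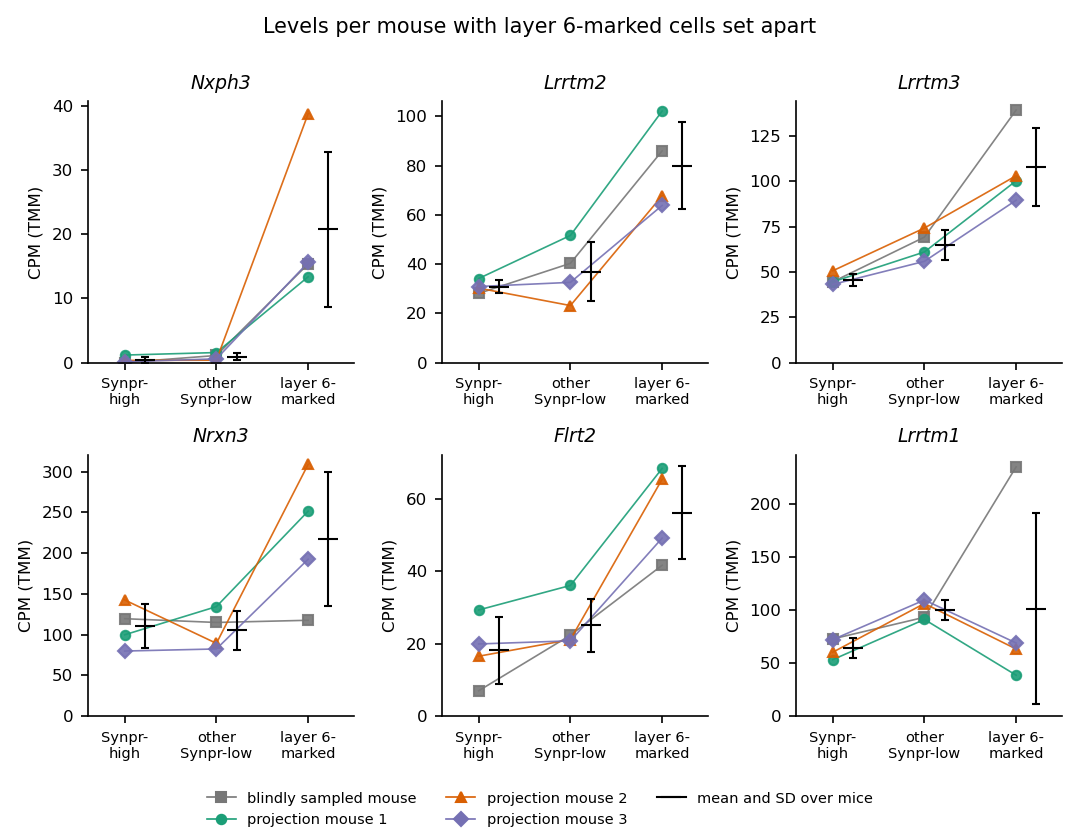
TMM-normalized CPM (y axis) per mouse in Synpr-high, other Synpr-low and layer 6-marked Synpr-low cells (x axis) for Nxph3, Lrrtm2, Lrrtm3, Nrxn3, Flrt2 and Lrrtm1; lines join the classes of a mouse, and black bars give the mean and SD over 4 mice. Nxph3 rises in the layer 6-marked class alone, from 0.898 to 20.8 CPM on average, and the blindly sampled mouse lies apart from the others for Lrrtm1.

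Cells with different axonal targets were compared in the 3 projection mice. RSC-labelled cells had more Cbln2 and Slitrk1 than LEC-labelled cells, and these were the 2 organizers called of 33, against 1.89% of 13976 genes called higher, 2.06% called lower and 3.95% in both directions. With the mouse as a block the same 2 organizers were called. The labels also differ in class, since 86.2% of RSC-labelled, 15.7% of LEC-labelled and 27.9% of unlabelled cells were Synpr-high, and 39.6% of unlabelled cells had counts of at least 2 layer 6 markers, against 10.1% and 7.34% of RSC- and LEC-labelled cells. All plates but plate 12 hold cells of 1 label, so label and plate cannot be told apart elsewhere.

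Cbln2 stood at 81.4, 91.0 and 88.9 CPM in RSC-labelled cells of projection mice 1, 2 and 3. In LEC-labelled cells it stood at 29.9, 31.0 and 29.5 CPM, and in unlabelled cells at 32.5, 38.2 and 51.4 CPM. RSC-labelled cells were above the other groups in every mouse, and the LEC and unlabelled values did not overlap either, although the smaller gap between these was not called. The log2 fold change between RSC and LEC was 1.53 (SE, 0.19; edgeR, adjusted p = 0.00203, and 0.0619 without projection mouse 2). Within plate 12, which held 34 RSC- and 44 LEC-labelled cells of projection mouse 3, Cbln2 stood at 82.5 and 29.9 CPM.

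Slitrk1 stood at 51.5, 44.1 and 63.9 CPM in RSC-labelled, 28.8, 23.2 and 24.2 CPM in LEC-labelled and 21.1, 24.4 and 40.4 CPM in unlabelled cells of projection mice 1 to 3. The RSC values were above all LEC values. The log2 fold change between RSC and LEC was 1.07 (SE, 0.26; edgeR, adjusted p = 0.0472), and in plate 12 the levels were 73.7 and 32.1 CPM. Leaving out any mouse ended the call, with changes of 0.88 to 1.20 and adjusted p of 0.109 to 0.271, as did leaving out layer 6-marked cells (0.0529) or plate 12 (0.0507). Lphn2 stood at 40.8, 25.8 and 38.9 CPM in RSC-labelled and 15.8, 16.5 and 19.0 CPM in LEC-labelled cells, again without overlap, and did not pass (log2 fold change, 1.04; SE, 0.34; edgeR, adjusted p = 0.129). Of 33 organizers, 3 lay above and 3 below in RSC-labelled cells without overlap, and the share over all genes was not counted.

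**Figure D4:**
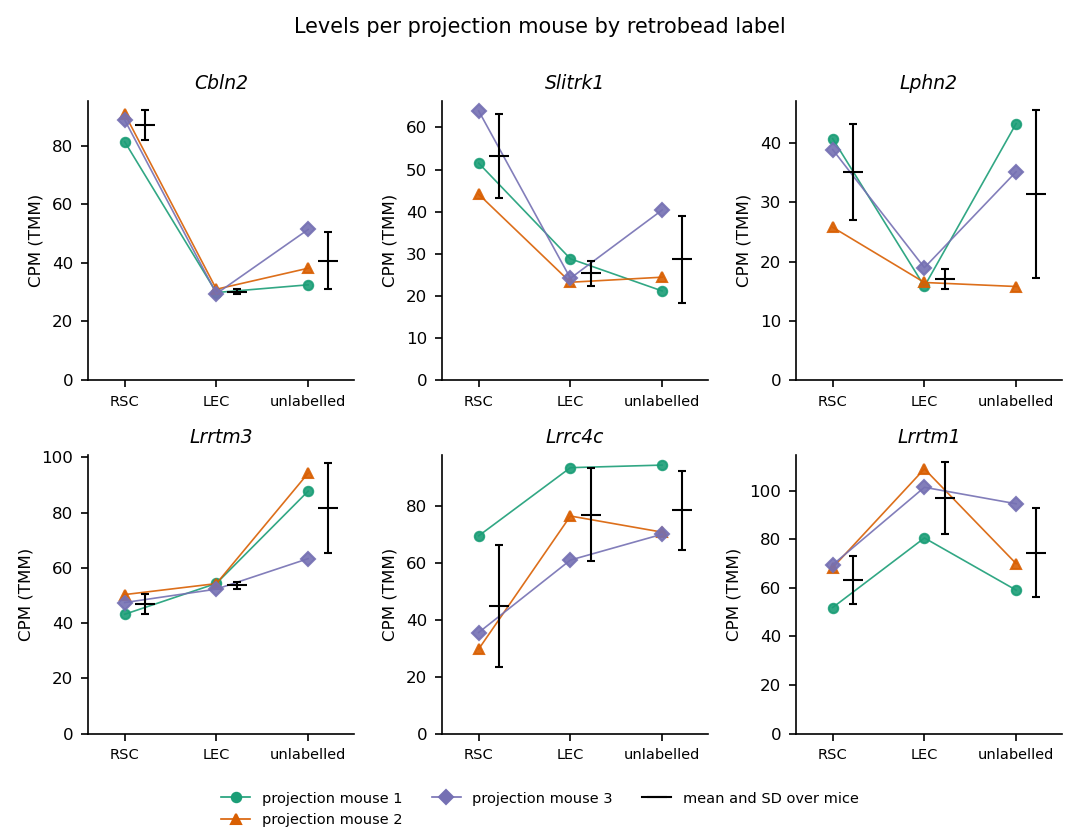
TMM-normalized CPM (y axis) in RSC-labelled, LEC-labelled and unlabelled cells (x axis) of the 3 projection mice for 6 organizers; lines join the groups of a mouse, and black bars give the mean and SD. Cbln2 and Slitrk1 are highest in RSC-labelled cells of each mouse, and Lrrtm3 is highest in unlabelled cells of each mouse.

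Organizers on the lower side in RSC-labelled cells did not pass the test against LEC. Lrrtm1 stood at 63.2 ± 9.84 CPM in RSC-labelled and 97.0 ± 14.7 CPM in LEC-labelled cells (n = 3; log2 fold change, -0.62; SE, 0.21; edgeR, adjusted p = 0.142), Lrrc4c at 44.9 ± 21.5 and 77.0 ± 16.2 CPM (-0.77; SE, 0.30; adjusted p = 0.208), and Slitrk5 at 199 ± 43.4 and 269 ± 1.79 CPM (-0.44; SE, 0.15; adjusted p = 0.156). In plate 12, Lrrc4c stood at 21.5 CPM in RSC-labelled and 71.0 CPM in LEC-labelled cells. Ctnna2, around Lrrtm1, was higher in RSC-labelled cells (log2 fold change, 1.06; SE, 0.16; edgeR, adjusted p = 0.0048). Of the 29 partner genes tested, 4 were higher and 6 lower in RSC-labelled cells by edgeR, against 1.89% and 2.06% of all genes, among them Odz2 with a log2 fold change of 1.01, Unc5d with 1.45 and Gpc4 with -3.20.

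Against unlabelled cells of the same mice, RSC-labelled cells had more Cbln2 (log2 fold change, 1.10; SE, 0.19; edgeR, adjusted p = 0.0187) and less Lrrtm3, 2 of 33 organizers against 1.63% of all genes. Lrrtm3 stood at 43.2, 50.3 and 47.4 CPM in RSC-labelled and 87.7, 94.2 and 63.3 CPM in unlabelled cells of projection mice 1 to 3, without overlap (log2 fold change, -0.80; SE, 0.17; edgeR, adjusted p = 0.0477, and 0.0706 with the mouse as a block). Its level in LEC-labelled cells, 54.4, 54.3 and 52.3 CPM, was also below every unlabelled value. Neither call held without any of the mice, with adjusted p of 0.0930 to 0.235 for Cbln2 and 0.153 to 0.319 for Lrrtm3. Without overlap with unlabelled cells, 3 organizers lay above and 5 below in RSC-labelled cells. In LEC-labelled cells 2 lay above and 4 below, and the shares over all genes were not counted. LEC-labelled and unlabelled cells gave 0 calls by edgeR among organizers and 0% of all genes, with 6 organizers at an unadjusted p under 0.05, against 7.72% of all genes, and 0 organizers by DESeq2. The comparisons with unlabelled cells share those cells, and with RSC against LEC they share the labelled ones.

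To ask whether the label mattered among cells of the same class, sums were made per mouse, label and class. Synpr-high cells numbered 213 with the RSC label and 45 with the LEC label, and Synpr-low cells 34 and 241. Among Synpr-high cells 0 of 31 organizers tested and 0% of 12409 genes were called by edgeR, with 1 organizer at an unadjusted p under 0.05, against 4.09% of all genes, and 0 organizers by DESeq2. On simulated sums this comparison recovered 5% of 2-fold and 28% of 4-fold changes, so the lack of calls does not show equal levels. Cbln2 stood at 83.4, 100 and 92.7 CPM in RSC-labelled and 56.4, 102 and 86.7 CPM in LEC-labelled Synpr-high cells of projection mice 1 to 3. The groups overlapped, and the interval of the log2 fold change ran from -0.71 to 1.06. Slitrk1 stood at 54.4, 46.6 and 64.0 CPM against 55.0, 67.3 and 36.2 CPM, with an interval of -0.71 to 0.83.

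Among Synpr-low cells edgeR called 0 of 31 organizers and 0.193% of genes, with 8 organizers at an unadjusted p under 0.05, against 11.4% of all genes. By DESeq2, 3 were called, which were Cbln2, Slitrk1 and Nrxn2. Cbln2 stood at 71.2, 52.8 and 15.3 CPM in the 12, 14 and 8 RSC-labelled Synpr-low cells of projection mice 1, 2 and 3 and at 18.1, 15.9 and 18.5 CPM in LEC-labelled ones, so that projection mouse 3 did not show the difference of the other two (log2 fold change, 1.42; SE, 0.43; edgeR, adjusted p = 0.237). Slitrk1 stood at 33.4, 32.8 and 55.9 CPM against 17.1, 13.8 and 21.7 CPM, without overlap (log2 fold change, 1.21; SE, 0.37; edgeR, adjusted p = 0.239). Nrxn2 stood at 96.4, 136 and 147 CPM against 52.1, 74.2 and 70.0 CPM, also without overlap (log2 fold change, 0.95; SE, 0.25; edgeR, adjusted p = 0.182). Of the 31 organizers, 4 lay above and 2 below without overlap, and the share over all genes was not counted. The test of the difference between the classes, an interaction of label and class, called 0 of 31 organizers by edgeR and 0.0645% of genes, with 4 organizers at an unadjusted p under 0.05, against 8.31% of all genes, and 1 by DESeq2, Nxph1, which was at 0 in 7 of the 12 sums, so that no fold is given. For Odz2, the partner of latrophilins, the label gave a log2 fold change of 1.21 among Synpr-low cells (SE, 0.16; edgeR, adjusted p = 0.0107), and the interaction was -1.66 (SE, 0.23; edgeR, adjusted p = 0.0331, and 0.0616 with the mouse as a block). For Nrxn2 the interaction was -1.17 (SE, 0.35; edgeR, adjusted p = 0.343), for Slitrk1 -1.15 (SE, 0.51; adjusted p = 0.582) and for Cbln2 -1.24 (SE, 0.59; adjusted p = 0.613).

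**Figure D5:**
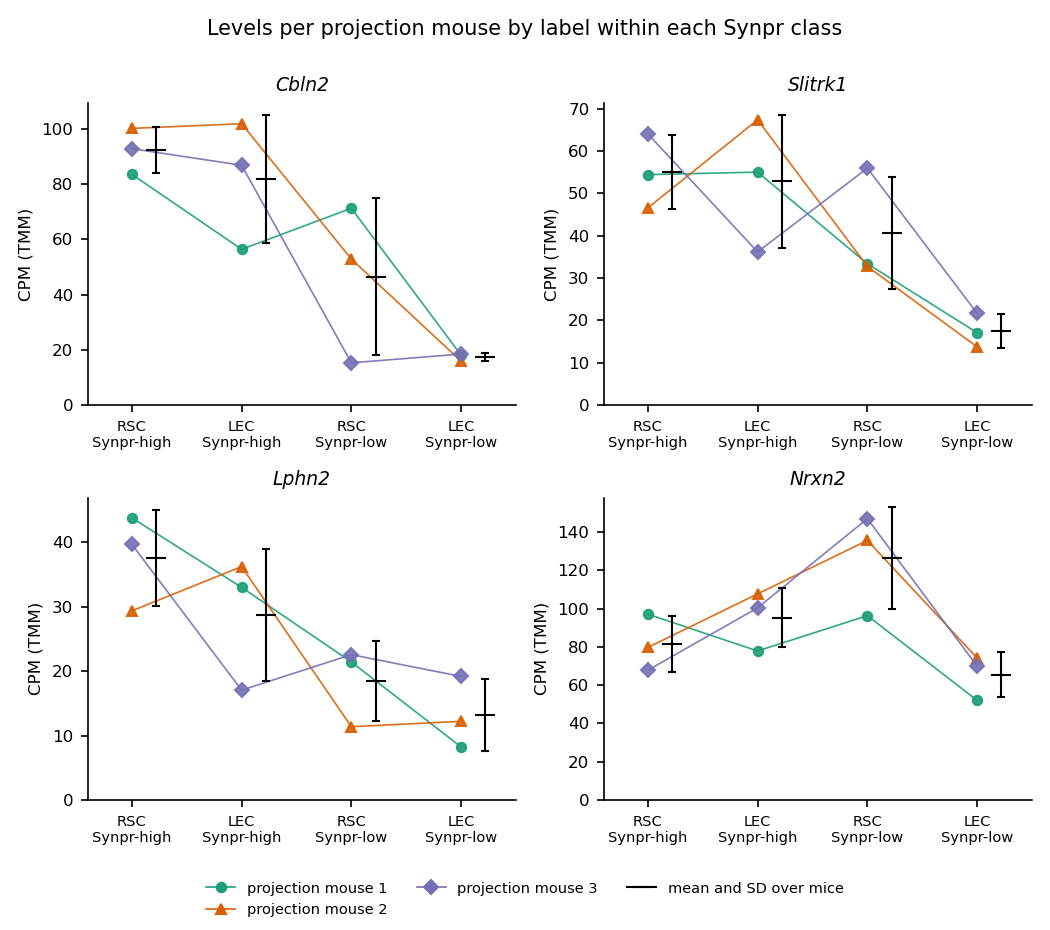
TMM-normalized CPM (y axis) per projection mouse by label within the Synpr-high and Synpr-low classes (x axis) for Cbln2, Slitrk1, Lphn2 and Nrxn2; lines join the groups of a mouse, and black bars give the mean and SD over 3 mice. RSC- and LEC-labelled Synpr-high cells overlap for each of the 4 genes. Among Synpr-low cells the values of Slitrk1 and Nrxn2 do not overlap between labels, and neither gene was called by edgeR.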

How the data were processed

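Single cells were harvested by hand, and 3′ barcoded cDNA was sequenced. The authors aligned reads with STAR, whose version is not given in the sources used here, and deposited counts per gene and cell. The submitters' processing notes name the build NCBIM37 and Seurat. The use of strand was not given, and counts were taken as reads. Cells were assigned to mouse, plate and label by the deposited cell tables. Cells were kept where Snap25 and Slc17a7 each had 1 count or more, and counts were summed per mouse and group, with at least 5 cells per sum.

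Sums were tested with edgeR 4.0.16 (quasi-likelihood test, TMM scaling, low counts removed by filterByExpr, p-values adjusted by Benjamini-Hochberg over every gene tested, threshold 0.05) in R 4.3.3, with two-sided p-values that measure the spread between 4 or 3 mice. Fits used the 8 sums of the Synpr classes, 9 sums of label, 12 sums of label by class, or 12 sums with layer 6-marked cells apart. DESeq2 1.42.0 and limma 3.58.1 were alternatives, together with the choices given in the closing section. Groups of a mouse are paired since they come from the same animal. Deviations from the group means of sums of the same mouse had a median correlation of 0.232 for the Synpr classes (0.204 to 0.631) and of 0.0449 for the labels. R also gave the exact intervals, which cover counting error only, and Python 3.11.15 with scipy 1.17.1 was used to read the counts.

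Per-mouse values are given for organizers called in any comparison and for relatives with the largest change, and at most 8 partner genes of smallest p are named per comparison. The organizers and lists were chosen with earlier results of these data known. The edgeR test was checked on simulated sums with genes changed 2-fold or 4-fold. It recovered 25% and 66% of these between the Synpr classes and 29% and 56% between RSC and LEC. Within Synpr-high cells it recovered 5% and 28%, and within Synpr-low cells 9% and 35%. For layer 6-marked cells the shares were 12% and 59%. False calls made up 1.39% to 7.61% of calls. Most 2-fold changes were thus missed in these sums. Their changed genes were drawn at random from all genes tested, and no effect shared by the groups of a mouse was put in. The shares are therefore not those of the organizers in particular, and a gene not called may still differ. Gene overlaps were read from GENCODE M21 and promoters from RefSeq (GRCm38.p6), a build other than that of the counts.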

Additional observations from a re-analysis of the deposited data

Results flagged for a closer look

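In groups of 4 mice, 132 sets of organizer levels were examined for a mouse whose gap to the nearest other mouse, as a share of the range, passed Dixon's 95% limit. This holds for 21 sets, and chance alone gives about 1 in 20. The mouse apart was the blindly sampled mouse in 14 sets, projection mouse 1 in 2, projection mouse 2 in 2 and projection mouse 3 in 3. The blindly sampled mouse also differs in depth and possibly in flow cell, which cannot be told apart from the mouse.

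In the blindly sampled mouse, Lphn1 stood at 209 CPM in Synpr-high cells (97.4 to 112 CPM in the projection mice), 208 CPM in Synpr-low cells (89.7 to 108 CPM) and 243 CPM in layer 6-marked cells (108 to 111 CPM). Cbln2 stood at 45.7 CPM in its Synpr-low cells (22.5 to 24.6 CPM in the others) and 63.0 CPM in its other Synpr-low cells (21.3 to 26.2 CPM). Cbln4 stood at 15.4 CPM in Synpr-low (1.07 to 1.74 CPM) and 21.2 CPM in other Synpr-low cells (0.885 to 1.85 CPM). Lrrc4 stood at 34.3 CPM in Synpr-low (19.4 to 21.6 CPM) and 34.1 CPM in other Synpr-low cells (19.0 to 21.3 CPM). Slitrk5 stood at 339 CPM in Synpr-low cells (264 to 271 CPM), and Nlgn2 was lower than in the other mice in Synpr-high cells, at 8.10 CPM (12.9 to 13.7 CPM). In its layer 6-marked cells, Lrrtm1 stood at 235 CPM (38.7 to 69.1 CPM), Slitrk1 at 32.6 CPM (20.1 to 21.5 CPM) and Lrfn4 at 10.9 CPM (5.27 to 6.15 CPM).

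In projection mouse 3, Nxph1 stood at 14.8 CPM in Synpr-high cells (0 to 2.12 CPM in the other mice) and 4.33 CPM in layer 6-marked cells (0 to 0.542 CPM), and Cbln4 at 5.46 CPM in layer 6-marked cells (0 to 0.431 CPM). In projection mouse 2, layer 6-marked cells had 38.8 CPM of Nxph3 (13.4 to 15.6 CPM) and 3.02 CPM of Lrfn1 (0 to 0.188 CPM). In projection mouse 1, Flrt2 stood at 36.1 CPM in other Synpr-low cells (20.8 to 22.3 CPM), and Slitrk2 at 1.63 CPM in layer 6-marked cells and at 0 in those of the other mice. Of 145 layer 6-marked cells, 2 had a count of Cbln4, 2 of Slitrk2, 3 of Nxph1 and 5 of Lrfn1. Nxph1 had a count in 8 of 438 Synpr-high cells. The levels of these 4 genes in layer 6-marked cells, and of Nxph1 in Synpr-high cells, thus rest on a few cells. They do not show a difference between mice. Among Synpr-low cells as a whole, Cbln4 had a count in 27 of 573, with shares of 2.78 to 10.4% in the single mice.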

How the results depend on the processing

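The log2 fold changes of 18 organizer results were recomputed under 207 alternatives in all, of which 145 kept the direction and the side of the threshold, 41 lost the call, 21 gained one and 0 reversed. Cbln2 was called between the Synpr classes under all 14 of its alternatives, with log2 fold changes of 1.55 to 1.96. With the mouse as a replicate block, 9 organizers (5 without it) were called between the Synpr classes, 1 (2) between RSC and unlabelled cells and 5 (3) in layer 6-marked cells, and no other count of organizers moved. DESeq2 called 4 organizers between RSC and LEC, 3 within Synpr-low cells, 1 in the interaction and 6 in layer 6-marked cells. Without layer 6-marked cells there were 3 calls between the Synpr classes and 1 between RSC and LEC, and without plate 12 there was 1. With 1 layer 6 marker required in place of 2, 0 organizers were called. Leaving out a mouse gave 2 to 6 organizers between the Synpr classes, 0 to 2 between RSC and LEC, 0 between RSC and unlabelled cells and 0 to 2 in layer 6-marked cells. The alternatives on layer 6-marked cells as a comparison, on Gad1 or Gad2 and on plate 12 were chosen after seeing the data. The cause of these shifts was not tested.

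Over all genes, the block gave 1995 calls in place of 1202 between the Synpr classes and 474 in place of 256 in layer 6-marked cells, and leaving out a mouse gave 544 to 1581 and 32 to 236. Between RSC and LEC (552 calls), DESeq2 gave 1145, limma 878 and leaving out a mouse 59 to 391. Between RSC and unlabelled cells (228), DESeq2 gave 661 and leaving out a mouse 8 to 47. Between LEC and unlabelled cells (0), DESeq2 gave 114, the block 2, no filter 9 and leaving out a mouse 0 to 2. Within Synpr-high cells (0), DESeq2 gave 21 and no filter 5, and within Synpr-low cells (24) DESeq2 gave 293, the block 15, no filter 60 and leaving out a mouse 0 to 7. The interaction (8) gave 114 by DESeq2, 1 with the block, 24 with no filter, 3 and 4 with Synpr limits of 100 and 500 CPM and 0 to 1 without a mouse. In layer 6-marked cells, DESeq2 gave 683, and limits of 1 and 3 markers gave 7 and 605.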
